A study of Papio anubis with 28 samples.

Results

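The collagen genes were taken as every row whose symbol is COL, a number, the letter A and a number, which gave 44 of the 27533 genes in the table. They comprised 11 fibrillar, 6 basement membrane, 10 FACIT (fibril-associated collagens with interrupted triple helices) and 17 other collagens. Of the 44, 42 had enough reads to be tested, while COL2A1, the fibrillar collagen of cartilage, and COL25A1, a transmembrane collagen of neurons, had 68 and 124 reads over all 28 libraries and were not. Gene expression had been measured by RNA sequencing in the urinary bladder of 14 olive baboons (Papio anubis), all labelled wild type, and each animal gave 1 library of the tissue grafted into its bladder and 1 library of its native bladder. The groups were ileum grafts (5 animals, the Entero arm, named for enterocystoplasty, in which a segment of bowel enlarges the bladder), SIS regenerated tissue (5 animals), PRS regenerated tissue (4 animals) and the native bladder of each arm (5, 5 and 4 animals). In the SIS and PRS arms the graft was a scaffold that carried cells of bone marrow, namely mesenchymal stem cells and CD34+ haematopoietic stem and progenitor cells. SIS is read here as small intestinal submucosa, a decellularised bowel matrix, and PRS is not spelled out in the sources used here, nor are the animals' ages and the time from surgery to sampling. The column names of the counts call the PRS libraries POOC and give each animal a letter, F or M. These letters may code sex and were not used in the tests. No ungrafted ileum was analysed here, so traits of bowel and changes after grafting cannot be told apart. Libraries are named below by arm, tissue and the number of the animal within its arm.

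Collagens are trimers of chains wound into a triple helix. Fibrillar collagens (types I, III and V in most soft tissue) give the bladder wall its tensile strength and its limit to stretch, and FACIT collagens decorate the surface of those fibrils. Type IV collagen forms the sheet of the basement membrane under epithelium and around smooth muscle, endothelial and fat cells, and its 6 chains assemble only in certain combinations, one of them containing the chains of COL4A5 and COL4A6. The remaining collagens include the beaded filaments of type VI, the anchoring fibrils of type VII that hold epithelium to stroma, the short-chain networks of types VIII and X, the multiplexins of vessel and nerve basement membranes, and collagens that span the cell membrane.

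Total counts lay between 20975648 and 35669026 per library, and mitochondrial genes took 14.0% to 33.9% of counts in ileum grafts and 4.66% to 11.6% in the other 5 groups. Levels are given as RPKM, which are scaled counts per kilobase of the deposited gene length, in a library of 1000000 counts. The labelled tissues carried their defining markers: those of intestinal epithelium summed to 2110 to 9700 CPM (counts in a library of 1000000) in ileum grafts and to 7.0 to 213 CPM in all other libraries, and urothelial markers to 7.98 to 70.4 CPM in ileum grafts and to 229 to 7200 CPM elsewhere. In 4 groups 1 library stood apart in fibrillar collagen: ileum graft 2 (1270 RPKM, against 157 to 269 in the other ileum grafts), SIS regenerated tissue 2 (4830, against 851 to 1800), PRS regenerated tissue 2 (2790, against 504 to 856) and Entero native bladder 4 (2470, against 304 to 776). These libraries also differed in cell markers: summed smooth muscle markers were lowest of their group in ileum graft 2, at 2360 CPM, and highest of their group in the other 3 libraries, at 36300, 70200 and 65100 CPM, in which urothelial markers were lowest of their group, at 502, 380 and 501 CPM. The part of tissue composition in the collagen levels was not tested, and in bulk tissue fewer cells of a type and less RNA per cell cannot be told apart.

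Collagen transcripts were dominated by a few genes. COL1A1 and COL1A2, the chains of type I collagen, averaged 434 and 417 RPKM over the 28 libraries, COL6A1 and COL6A2, chains of the type VI beaded filament, 311 and 284 RPKM, and COL3A1, the chain of type III, 273 RPKM. The leading chains of type IV, COL4A2 and COL4A1, followed at 101 and 66.0 RPKM, and the leading FACIT genes, COL14A1 and COL16A1, at 31.8 and 28.9 RPKM. By level per length the most abundant collagen was COL1A2 in 12 libraries, COL1A1 in 8, COL6A1 in 4 and COL6A2 in 4. This order depends on the deposited gene lengths, which are 3511 bases for COL1A1 and 7160 bases for COL1A2. By counts, not divided by length, COL1A2 lay above COL1A1 in every library, with 2255744 against 1134080 reads over all libraries. In ileum grafts COL6A1 or COL6A2 led by level in 4 of 5 libraries, and in regenerated tissue COL1A1 or COL1A2 led in all 9. COL6A1 or COL6A2 also led by level in Entero native bladders 1 and 3 and in PRS native bladders 1 and 4. By counts COL1A2 led in these native bladders and also in ileum graft 4, with 13586 reads against 12294 of COL6A2. A type VI gene still led by counts in ileum grafts 1, 3 and 5.

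**Figure D1:**
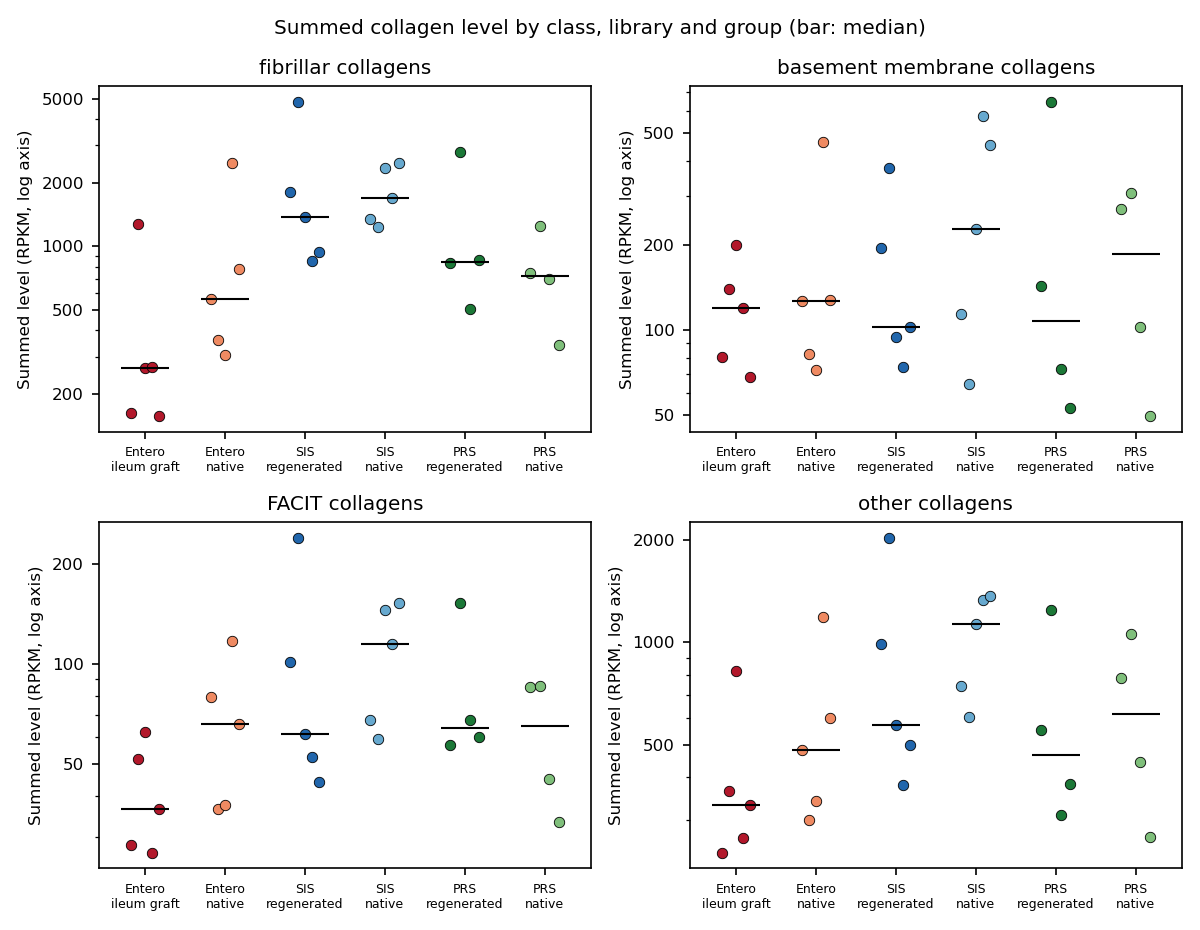
Summed level of the fibrillar, basement membrane, FACIT and other collagens (RPKM, log axis) in each library, with the group median as a bar. Fibrillar collagens had medians of 264 RPKM in ileum grafts and 560 RPKM in the native bladder of that arm, with ileum graft 2 far above the other 4 ileum grafts.

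Summed by class, fibrillar collagens stood at 163, 1270, 264, 269 and 157 RPKM in ileum grafts 1 to 5 and at 560, 359, 304, 2470 and 776 RPKM in the native bladders of the same animals. The groups overlapped through ileum graft 2 only, since the other 4 ileum grafts lay below every native bladder of the arm. In SIS regenerated tissue the sum was 1800, 4830, 1370, 851 and 942 RPKM, against 1340, 1230, 2340, 1690 and 2490 RPKM in SIS native bladder, and in PRS regenerated tissue it was 831, 2790, 504 and 856 RPKM, against 744, 1240, 698 and 342 RPKM in PRS native bladder. Regenerated tissue and native bladder overlapped widely in both arms.

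The make-up by class also differed between libraries. Fibrillar collagens held 37.4% ± 19.4 (SD, n = 5) of the summed collagen level in ileum grafts and 47.8% ± 6.72 (n = 5) in the native bladder of the same animals. They held 31.9, 19.6, 39.5 and 26.5% in ileum grafts 1, 3, 4 and 5, all below the lowest native value of 40.3%, and 69.4% in ileum graft 2, above the highest native value of 58.3%. Basement membrane collagens held 13.5% ± 3.92 in ileum grafts and 9.89% ± 1.09 in native bladder, FACIT collagens 4.62% ± 1.31 in ileum grafts and 4.6% ± 1.3 in native bladder, and other collagens 44.5% ± 16.1 in ileum grafts and 37.7% ± 6.14 in native bladder. In regenerated tissue fibrillar collagens held 62.1% ± 3.09 in SIS and 56.6% ± 5.09 (n = 4) in PRS, against 56.8% ± 6.80 and 47.3% ± 6.16 in the native bladder of those arms. Collagens as a whole took 0.404% ± 0.249 of all counts in ileum grafts, against 0.858% ± 0.569 in Entero native bladder, 1.45% ± 0.880 in SIS regenerated tissue, against 1.57% ± 0.422 in SIS native bladder, and 1.01% ± 0.696 in PRS regenerated tissue, against 0.812% ± 0.333 in PRS native bladder.

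Within animals the summed collagen level went both ways in every arm. It was higher in the graft than in the native bladder of the same animal in 2 of 5 Entero animals, 2 of 5 SIS animals and 2 of 4 PRS animals, with ratios of 0.161 to 2.35, 0.355 to 3.82 and 0.739 to 1.95. By class, fibrillar collagens were higher in the graft in 1 of 5 Entero, 2 of 5 SIS and 3 of 4 PRS animals, and basement membrane collagens in 2 of 5, 2 of 5 and 2 of 4. FACIT collagens were higher in 2 of 5, 2 of 5 and 3 of 4 animals, and other collagens in 2 of 5, 2 of 5 and 2 of 4. All 4 class sums lay on the same side of 0 in 11 of 14 animals. In SIS animal 2 the log2 differences were 1.97 for fibrillar, 2.55 for basement membrane, 2.01 for FACIT and 1.75 for other collagens, and in Entero animal 4 they were -3.20, -1.95, -2.12 and -2.16. In Entero animal 3 they differed in sign, with -0.20 for fibrillar and 1.47 for basement membrane collagens.

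**Figure D2:**
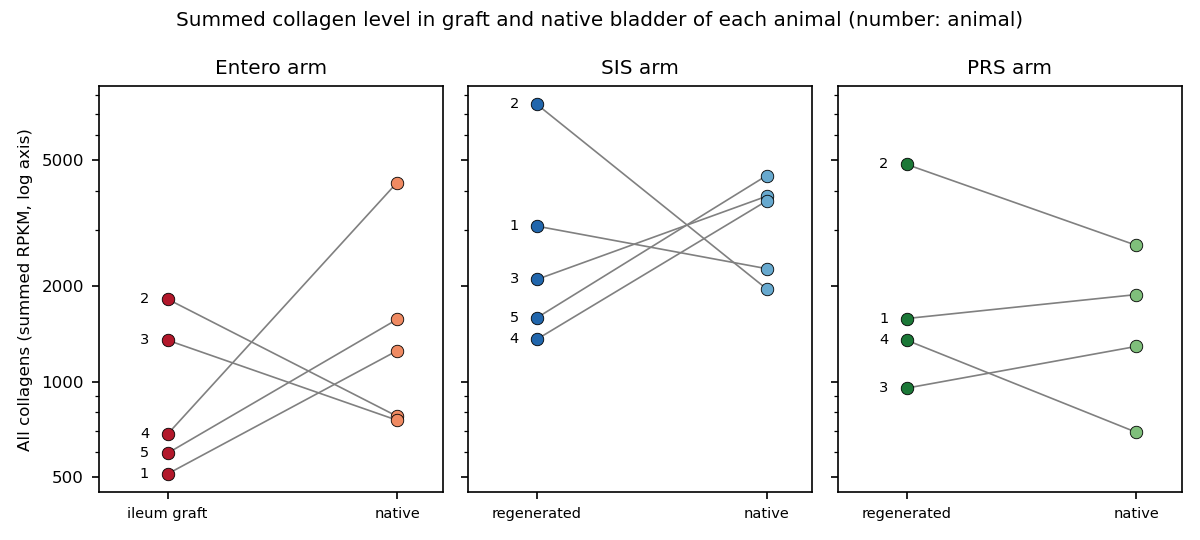
Summed level of all 44 collagens (RPKM, log axis) in the graft, left, and native bladder, right, of each animal, joined by a line and numbered by animal. Lines slope both ways in each arm, and graft and native values overlap.

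The first question was how collagen expression in the bowel segment differed from that in the host bladder. In edgeR's quasi-likelihood test, 1 of 42 collagens was higher in ileum grafts (COL9A1) and 5 were lower (COL4A5, COL4A6, COL14A1, COL21A1 and COL8A1), while 36 did not pass at an adjusted p of 0.05. Over all 17177 genes tested, 7.73% were called higher, 7.3% lower and 15% in either direction, so the 2.38% of collagens called higher lie below, the 11.9% called lower somewhat above, and the 14.3% called in either direction near the share in all genes. DESeq2 called 3 higher and 6 lower. These were all the genes named above, with COL13A1 and COL17A1 higher and COL8A2 lower in addition. The median log2 fold change was -0.22 over the collagens and -0.03 over all genes. By class the calls were 0 of 10 fibrillar, 2 of 6 basement membrane (both lower), 3 of 10 FACIT (2 lower, 1 higher) and 1 of 16 other collagens (lower).

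Of the type IV genes, COL4A5 and COL4A6 fell and the other 4 were not called. COL4A5 (ENSPANG00000025513) stood at 2.93, 2.08, 0.623, 2.05 and 1.52 RPKM in ileum grafts 1 to 5 and at 23.8, 9.05, 10.1, 18.4 and 18.8 RPKM in the native bladders of the same animals. Every ileum graft lay below every native bladder, and the gene fell 8.71-fold (-3.12 on the log2 scale, SE 0.46, adjusted p = 3.71e-05 by edgeR). COL4A6 (ENSPANG00000004840), which encodes the partner chain and neighbours COL4A5 in the RefSeq annotation, stood at 1.90, 1.97, 0.423, 0.319 and 1.53 RPKM in ileum grafts and at 19.5, 9.08, 7.87, 25.3 and 18.1 RPKM in native bladder. The groups again did not overlap, and the gene fell 13-fold (-3.70 on the log2 scale, SE 0.75, adjusted p = 0.00116 by edgeR).

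COL4A1 and COL4A2, the chains found in nearly all basement membranes, gave no call. COL4A1 stood at 31.0, 50.9, 59.9, 44.5 and 21.7 RPKM in ileum grafts and at 31.4, 24.5, 21.0, 166 and 33.5 RPKM in native bladder, and the log2 fold change was -0.41 (95% interval -2.07 to 1.24). COL4A2 stood at 43.6, 83.2, 139, 69.8 and 43.6 RPKM in ileum grafts and at 51.3, 37.0, 33.4, 254 and 57.1 RPKM in native bladder, and the log2 fold change was -0.19 (95% interval -1.70 to 1.32). Both genes overlapped between the groups, with Entero native bladder 4 highest; without that library the signs turned, to 0.59 for COL4A1 and 0.76 for COL4A2, still without a call. COL4A3 and COL4A4, chains of specialised basement membranes such as that of the glomerulus, were at or below 2.46 and 1.41 RPKM in every library of the series, and their log2 fold changes of 0.89 (SE 0.93) and 0.35 (SE 1.22) did not pass.

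As a ratio, COL4A5 amounted to 0.0524 ± 0.0318 of the COL4A1 level in ileum grafts and 0.456 ± 0.240 in native bladder (SD, n = 5 each). The ranges were 0.0104 to 0.0948 and 0.111 to 0.758, which do not overlap. COL4A6 amounted to 0.0219 ± 0.0180 of the COL4A2 level in ileum grafts and 0.256 ± 0.105 in native bladder, again without overlap. These ratios were chosen after their values were seen and are given with no test. Smooth muscle markers overlapped between ileum grafts (2360 to 77700 CPM) and native bladder (5710 to 65100 CPM), and 0 of 6 of them passed the test; their part in the type IV levels was not tested.

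**Figure D3:**
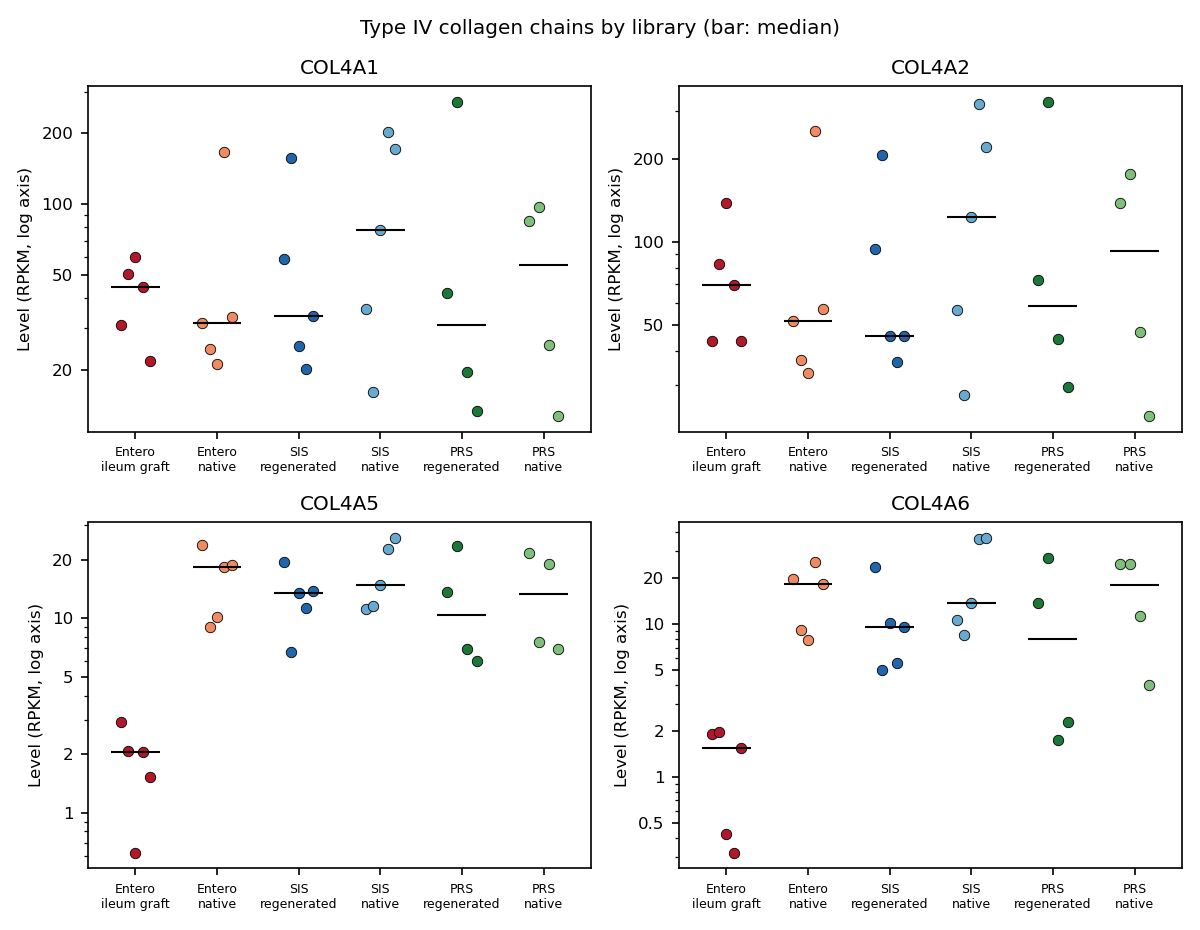
Level (RPKM, log axis) of 4 type IV collagen chains in each library, with the group median as a bar. COL4A5 and COL4A6 in the 5 ileum grafts lie below all 5 native bladders of the arm, while COL4A1 and COL4A2 overlap.

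Among FACIT collagens, COL14A1 (ENSPANG00000011145), which binds the surface of type I fibrils, stood at 6.07, 4.48, 6.02, 2.34 and 1.34 RPKM in ileum grafts and at 35.4, 9.91, 14.7, 59.3 and 39.0 RPKM in native bladder. The groups did not overlap, and the gene fell 7.82-fold (-2.97 on the log2 scale, SE 0.72, adjusted p = 0.00571 by edgeR). COL12A1, its closest relative among the FACIT collagens, was not called: it stood at 15.4, 17.2, 16.6, 8.09 and 5.11 RPKM in ileum grafts and at 6.31, 6.16, 3.72, 24.1 and 6.0 RPKM in native bladder (0.43 on the log2 scale, 95% interval -0.78 to 1.64). The ratio of COL14A1 to COL12A1, chosen after its values were seen, lay between 0.260 and 0.395 in ileum grafts and between 1.61 and 6.5 in native bladder.

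COL21A1 (ENSPANG00000015183), a short FACIT collagen of vessel walls, stood at 0, 0.113, 0.482, 0.0538 and 0.155 RPKM in ileum grafts and at 1.66, 0.345, 0.931, 0.761 and 1.24 RPKM in native bladder. The 0 allows up to 0.0427 RPKM, a limit of 3 counts that covers counting error only. The groups overlapped in ileum graft 3, and the log2 fold change was -2.60 (SE 0.76, adjusted p = 0.0198 by edgeR). The call was lost without Entero native bladder 1 (adjusted p = 0.0539) and when these 2 groups were fitted alone (0.11). COL9A1 (ENSPANG00000021650), a chain of type IX collagen known from cartilage, stood at 0.732, 4.12, 4.19, 1.27 and 2.11 RPKM in ileum grafts and at 0.861, 0.279, 0.118, 0.610 and 0.166 RPKM in native bladder. Only ileum graft 1 lay within the native range, and the gene rose 6.09-fold (2.61 on the log2 scale, SE 0.66, adjusted p = 0.00712 by edgeR). The other chains of type IX, COL9A2 and COL9A3, had log2 fold changes of 1.2 (SE 1.2) and 1.03 (SE 1.14) and did not pass, and of 5 tested markers of cartilage and bone 0 passed. COL16A1, a FACIT collagen found near small fibrils and basement membranes, differed by -0.54 (SE 0.42) without a call.

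**Figure D4:**
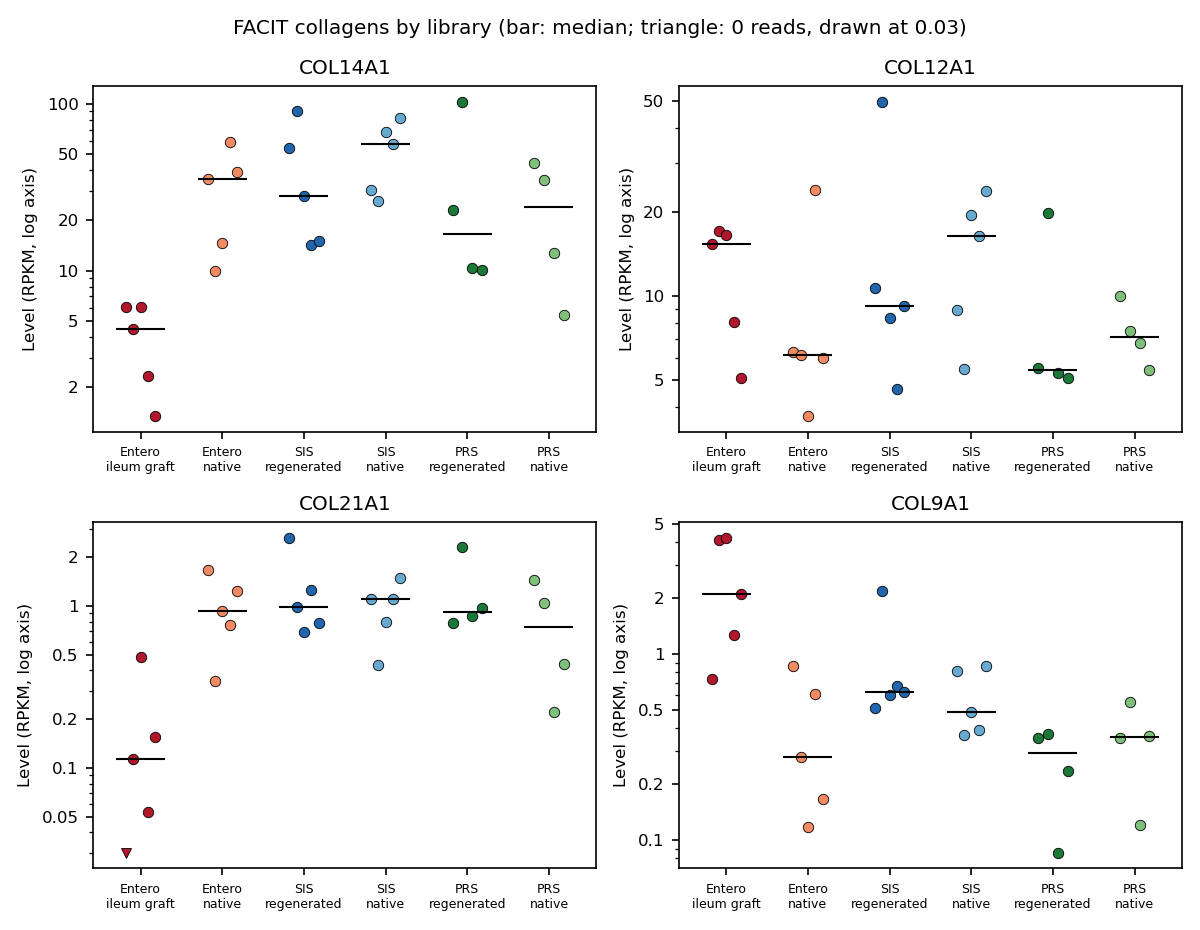
Level (RPKM, log axis) of 4 FACIT collagens in each library, with the group median as a bar and a triangle for a library without a read. COL14A1 is low and COL9A1 mostly high in ileum grafts, while COL12A1 overlaps between ileum grafts and native bladder.

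Of the other collagens, COL8A1 (ENSPANG00000025905), a short-chain collagen of endothelial and smooth muscle matrix, stood at 2.42, 2.74, 0.778, 1.79 and 1.05 RPKM in ileum grafts and at 7.22, 3.42, 3.27, 21.4 and 7.63 RPKM in native bladder. The groups did not overlap (-2.29 on the log2 scale, SE 0.70, adjusted p = 0.0272 by edgeR). The call was lost without ileum graft 3 (adjusted p = 0.0654), ileum graft 5 (0.0742) or native bladder 4 (0.116). COL8A2, its partner chain, was at 0, 2.45, 1.18, 1.56 and 0.134 RPKM in ileum grafts and 3.73, 2.84, 1.44, 10.8 and 5.66 RPKM in native bladder, which overlapped in ileum grafts 2 and 4, and did not pass (-2.20 on the log2 scale, SE 0.79, adjusted p = 0.0592 by edgeR). The 0 in ileum graft 1 allows up to 0.0677 RPKM. By DESeq2 COL8A2 was called lower.

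COL17A1, the hemidesmosome collagen of basal epithelial cells, stood at 40.7, 8.32, 25.8, 0.448 and 39.3 RPKM in ileum grafts and at 2.09, 4.37, 8.97, 0 and 5.50 RPKM in native bladder, where the 0 allows up to 0.0227 RPKM. Its log2 fold change of 2.45 (SE 1.04) did not pass (adjusted p = 0.114 by edgeR), although each animal had more in its graft than in its native bladder. By DESeq2 COL17A1 was called higher. COL7A1, the anchoring fibril collagen of epithelium, differed by -0.35 (SE 0.41). The type VI genes COL6A1, COL6A2 and COL6A3 differed by -0.57 (SE 0.56), -0.75 (SE 0.49) and -1.06 (SE 0.75), and the multiplexins COL15A1 and COL18A1 by 0.73 (SE 0.57) and -0.03 (SE 0.42). COL7A1 and these type VI and multiplexin genes passed neither by edgeR over all libraries nor by DESeq2.

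Fibrillar collagens gave no call in this comparison. COL1A1 stood at 34.3, 563, 73.0, 64.6 and 31.5 RPKM in ileum grafts and at 159, 106, 86.4, 860 and 251 RPKM in native bladder, which differed by -0.93 on the log2 scale (SE 0.77, adjusted p = 0.47 by edgeR). COL1A2 differed by -1.33 (SE 0.63, adjusted p = 0.164), COL3A1 by -1.20 (SE 0.60, adjusted p = 0.192) and COL5A1, a type V chain that sets fibril diameter, by -0.30 (SE 0.54). Without ileum graft 2 the log2 fold changes of COL1A1, COL1A2 and COL3A1 were -2.52, -2.39 and -1.86 and each passed (adjusted p = 0.0213, 0.0092 and 0.0464 by edgeR), and 10 collagens were called, 1 higher and 9 lower. With ileum graft 2 in the fit, none of these 3 genes passed, and without Entero native bladder 4 the value of COL1A1 was 0.03. With all 4 libraries that stood apart left out, a choice made after the data were seen, 9 collagens were called, 2 higher and 7 lower, among them COL1A1 and COL1A2.

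The remaining members were scarce or did not pass by edgeR. Among fibrillar chains, COL5A2 and COL5A3 of type V averaged 23.5 and 4.28 RPKM over the 28 libraries and differed by -0.26 (SE 0.53) and 0.44 (SE 0.55) between ileum grafts and native bladder. COL11A1, COL11A2 and COL24A1 averaged at most 0.372 RPKM, with values of 3.06 (SE 1.51), 0.48 (SE 1.54) and -1.76 (SE 1.04). The scarce FACIT genes COL19A1, COL20A1 and COL22A1 averaged at most 0.48 RPKM and differed by -2.85 (SE 1.73), 0.13 (SE 1.7) and 2.65 (SE 1.43). The transmembrane collagens COL13A1 and COL23A1 averaged 1.32 and 0.559 RPKM and differed by 1.68 (SE 0.74, adjusted p = 0.135 by edgeR) and 1.62 (SE 0.73, adjusted p = 0.141 by edgeR). By DESeq2 COL13A1 was called higher and COL23A1 was not called. COL10A1, a short-chain collagen of growth plate cartilage, had no read in 16 of 28 libraries. COL26A1, COL28A1, COL6A5 and COL6A6 averaged 0.182, 2.17, 1.57 and 0.733 RPKM and gave no call.

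**Figure D5:**
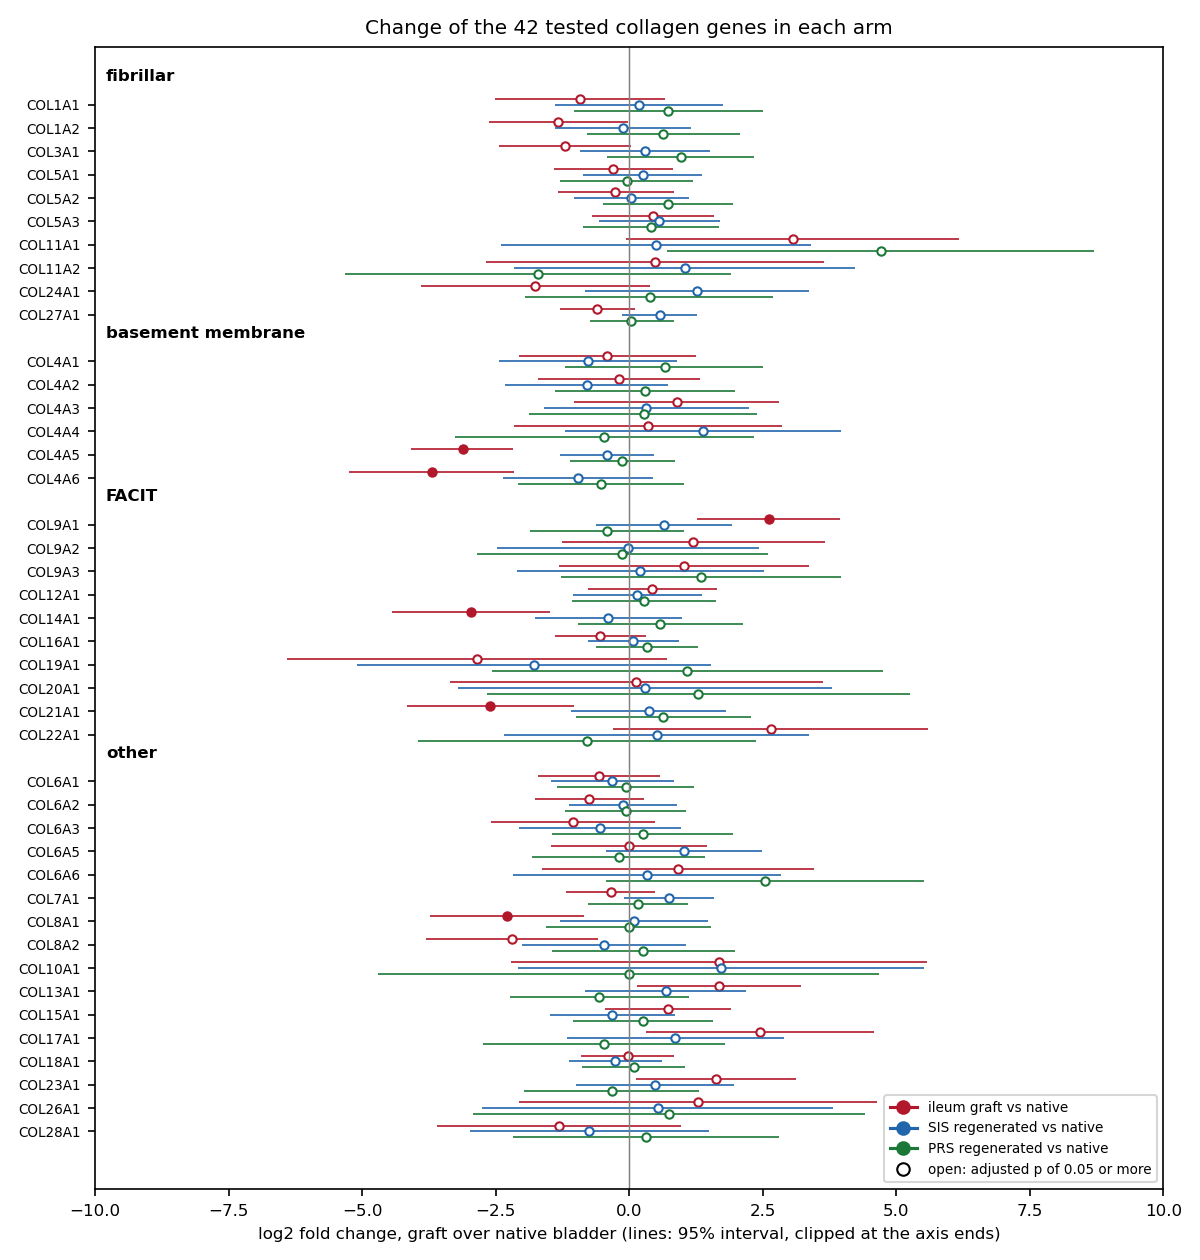
Log2 fold change of the 42 tested collagens, graft over native bladder, with its 95% interval, in the Entero arm (red), the SIS arm (blue) and the PRS arm (green), by class. Filled points passed an adjusted p of 0.05; these are 6 genes of the Entero arm, and no gene of the other arms is filled. The COL11A1 value of the PRS arm rests on 2 reads in PRS native bladder.

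Genes that make and handle collagen were counted beside the members, and each count is to be read against the 7.73% of all genes called higher and 7.3% called lower. Of 16 tested genes of modification and folding in the cell, 3 were higher and 2 lower in ileum grafts. P4HB, a subunit of prolyl 4-hydroxylase that is also a general folding enzyme, averaged 382 ± 116 RPKM in ileum grafts and 136 ± 20.3 RPKM in native bladder (SD, n = 5 each), while P4HA1, its catalytic subunit, averaged 11.4 ± 4.13 RPKM in ileum grafts and 22.3 ± 3.24 RPKM in native bladder. Their log2 fold changes were 1.49 (SE 0.29, adjusted p = 0.000833 by edgeR) and -0.97 (SE 0.25, adjusted p = 0.00814). PLOD3, a lysyl hydroxylase, and CREB3L1, a transcription factor that induces type I collagen genes, rose by 1.28 (SE 0.25) and 2.14 (SE 0.67) on the log2 scale. Of 15 genes of procollagen trimming and crosslinking, 3 were higher and 2 lower. MEP1A and MEP1B, brush border proteases that can also trim procollagen, rose by 10 (SE 1.08) and 9.65 (SE 1.2) on the log2 scale, and PCOLCE2 and PCOLCE, enhancers of procollagen trimming, fell by 5.22 (SE 1.12) and 1.81 (SE 0.47) on the log2 scale.

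Fibril-associated proteoglycans were below zero in 8 of 8 tested members, with a median log2 fold change of -1.63 against -0.03 over all genes, and 3 passed, all lower. DCN, which binds collagen fibrils and limits their width, averaged 202 ± 65.1 RPKM in ileum grafts and 1250 ± 812 RPKM in native bladder (-2.63 on the log2 scale, SE 0.54, adjusted p = 0.00128 by edgeR). OGN and LUM, related fibril-binding proteoglycans, fell by 2.31 (SE 0.68) and 1.71 (SE 0.53) on the log2 scale, and PRELP differed by -1.56 (SE 0.62) without a call. Of 10 collagen receptors 1 was lower, near the 7.3% of all genes called lower, ITGA11, a fibroblast integrin for fibrillar collagen (-2.15 on the log2 scale, SE 0.46), and of 7 tested genes of collagen degradation, too, only 1 was lower, CTSK, a collagen-cleaving cathepsin (-1.82, SE 0.47). Fibroblast markers moved with these genes: 3 of 7 were lower and 0 higher, and their sum was 566 to 1360 CPM in ileum grafts against 2050 to 9780 CPM in native bladder. DCN and LUM are in both lists. Of the other marker lists, endothelium (0 of 6), Schwann cell (0 of 5) and adipocyte (0 of 4) gave no call, mesothelium 1 of 5 lower and leukocyte 1 of 5 higher. UPK3B of the mesothelium list, which is also a uroplakin gene, stood at 0.549 to 12.3 CPM in ileum grafts and 73.6 to 442 CPM in native bladder. That list therefore does not tell mesothelium from urothelium here. The part of the cell types of all these lists in the collagen results was not tested.

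In SIS regenerated tissue 0 of 42 collagens differed from native bladder by edgeR and 0 by DESeq2, and none of the 42 unadjusted p was under 0.05. The share called in either direction over all genes was also 0%. The median log2 fold change was 0.23 over collagens and 0.03 over all genes. The interval of the fold change stayed within 4-fold either way for 20 of 42 collagens and within 2-fold for 1, so for the other 22 a difference of 4-fold lay within the interval. The smallest p were those of COL7A1 (0.74 on the log2 scale, 95% interval -0.10 to 1.58, adjusted p = 1 by edgeR), COL27A1, a fibrillar collagen of thin fibrils (0.57, interval -0.14 to 1.27), and COL6A5, a minor type VI chain (1.03, interval -0.43 to 2.49). COL27A1 stood at 5.81, 11.1, 8.52, 8.33 and 7.61 RPKM in regenerated tissue and at 5.31, 7.28, 5.24, 3.36 and 6.75 RPKM in native bladder. The graft of each of the 5 SIS animals had more than its native bladder, as had the grafts of 2 of 4 PRS animals.

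The 5 genes that fell in ileum grafts gave no call in SIS regenerated tissue. COL4A5 stood at 19.4, 6.67, 13.5, 11.3 and 13.8 RPKM in regenerated tissue and at 11.1, 11.6, 14.9, 22.7 and 25.8 RPKM in native bladder, with a log2 fold change of -0.42 (95% interval -1.3 to 0.46). COL4A6 stood at 23.5, 4.97, 10.2, 5.57 and 9.54 RPKM in regenerated tissue and at 10.6, 8.45, 13.6, 35.7 and 36.3 RPKM in native bladder (-0.96 on the log2 scale, interval -2.36 to 0.44). The groups overlapped for both genes. COL14A1 differed by -0.39 (interval -1.77 to 0.99), COL21A1 by 0.36 (interval -1.09 to 1.82) and COL8A1 by 0.09 (interval -1.29 to 1.47). Among the abundant genes, COL1A1, COL1A2 and COL3A1 differed by 0.19 (SE 0.77), -0.12 (SE 0.62) and 0.29 (SE 0.59).

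In PRS regenerated tissue, too, 0 of 42 collagens passed by edgeR or DESeq2, and the share over all genes was 0%. Only COL11A1, a fibrillar chain that nucleates thin fibrils, had an unadjusted p under 0.05. It had 54 reads over the 4 regenerated tissues and 2 over the 4 native bladders, which is 28.6 times as many per counted read (95% interval 7.54 to 242, for counting error only), and the 54 reads came from PRS animals 1 and 2, since the other 2 regenerated tissues had no read. COL6A6, a minor type VI chain, and COL3A1 followed, with log2 fold changes of 2.54 (95% interval -0.44 to 5.51) and 0.96 (interval -0.41 to 2.34). COL4A5, COL4A6, COL14A1, COL21A1 and COL8A1 differed by -0.13, -0.53, 0.58, 0.64 and -0.01, with SEs of 0.48, 0.75, 0.75, 0.79 and 0.75.

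With both scaffold arms pooled, 0 of 42 collagens passed by edgeR or DESeq2, against 0% of all genes, and the interval stayed within 4-fold for 31 of 42. COL11A1 (2.60 on the log2 scale, SE 1.17, adjusted p = 0.932 by edgeR), COL6A6 (1.44, SE 0.93) and COL7A1 (0.45, SE 0.31) had the smallest p. For COL4A5 the pooled interval was -0.93 to 0.38, and for COL4A6 it was -1.79 to 0.30.

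Regenerated tissue was also set against the ileum graft, which compares tissues of different animals that serve the same place in the bladder. SIS regenerated tissue had 13 of 42 collagens higher than ileum grafts and 0 lower by edgeR, which is 31% of collagens higher, against 10.9% of all genes called higher, 10.2% lower and 21.1% in either direction. DESeq2 called 15 higher and 2 lower (COL9A1 and COL22A1). COL22A1 was also called lower by edgeR when these 2 groups were fitted alone and without ileum graft 1. The median log2 fold change was 0.94 over collagens and 0.04 over all genes. By class 4 of 10 fibrillar, 2 of 6 basement membrane, 3 of 10 FACIT and 4 of 16 other collagens were higher. PRS regenerated tissue had 5 higher (COL4A5, COL4A6, COL14A1, COL21A1 and COL7A1) and 1 lower (COL9A1), against 7.21% of all genes higher, 6.71% lower and 13.9% in either direction. There DESeq2 called 8 higher and 3 lower (COL9A1, COL22A1 and COL23A1). The same 5 ileum libraries serve in both comparisons and in that with native bladder, so the 3 are not independent.

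COL4A5 was 7-fold higher in SIS (2.81 on the log2 scale, SE 0.46, adjusted p = 8.73e-05 by edgeR) and 6.83-fold higher in PRS regenerated tissue (2.77, SE 0.47, adjusted p = 0.00023). Its lowest levels, 6.67 RPKM in SIS and 6.02 RPKM in PRS regenerated tissue, lay above the highest ileum graft at 2.93 RPKM. COL4A6 was higher by 3.13 (SE 0.73) in SIS and 3.19 (SE 0.75) in PRS. PRS regenerated tissues stood at 13.7, 27.1, 1.74 and 2.27 RPKM, and of these the third lay within the range of the ileum grafts. COL14A1 was higher by 3.32 (SE 0.73) in SIS and 3.17 (SE 0.75) in PRS, where levels of 14.3 RPKM and 10.1 RPKM or more lay above all ileum grafts. COL21A1 was higher by 2.97 (SE 0.77) and 2.92 (SE 0.79), with no regenerated tissue of either arm as low as any ileum graft. Without PRS regenerated tissue 2 the PRS calls of COL14A1 and COL21A1 were lost (adjusted p = 0.0783 and 0.0563). With the 2 groups fitted alone, the PRS calls of COL4A6 (adjusted p = 0.0534) and COL21A1 (0.17) and the SIS call of COL21A1 (0.059) were lost.

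Of the fibrillar genes, 4 passed against ileum grafts in SIS regenerated tissue and 0 in PRS regenerated tissue by edgeR over all libraries. COL3A1 passed in PRS by DESeq2, and COL1A1, COL1A2 and COL3A1 passed there without ileum graft 2 and without the 4 libraries that stood apart. COL3A1 stood at 424, 1200, 342, 205 and 269 RPKM in SIS regenerated tissue and at 55.4, 221, 56.2, 75.7 and 38.4 RPKM in ileum grafts (2.45 on the log2 scale, SE 0.63, adjusted p = 0.00654 by edgeR), where SIS regenerated tissue 4 lay just below ileum graft 2. It stood at 201, 654, 113 and 187 RPKM in PRS regenerated tissue (1.69, SE 0.63, adjusted p = 0.0738 against ileum). COL1A2 and COL1A1 were higher by 2.19 (SE 0.65) and 2.28 (SE 0.80) in SIS and differed by 1.65 (SE 0.66) and 1.59 (SE 0.82) in PRS, without a call. The SIS call of COL1A1 was lost without ileum graft 1, 3, 4 or 5 or SIS regenerated tissue 1, 2 or 3 (adjusted p = 0.0518 to 0.168), without a filter on low counts (0.0573) and when the 2 groups were fitted alone (0.102). That of COL1A2 was lost without ileum graft 5 (0.0504) or SIS regenerated tissue 2 (0.0716) and when the 2 groups were fitted alone (0.0549). In the direct test of PRS against SIS regenerated tissue, COL3A1 differed by -0.75 (SE 0.64, adjusted p = 1 by edgeR).

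The remaining SIS calls were short-chain, type VI, FACIT and anchoring fibril genes. COL8A1 and COL8A2 were higher by 3.21 (SE 0.73) and 2.57 (SE 0.80), COL16A1 by 1.34 (SE 0.42), COL6A2 by 1.45 (SE 0.50) and COL7A1 by 1.24 (SE 0.41). COL5A1, the gene with the largest p of the 13 and named outside the rule, was higher by 1.55 (SE 0.55). Each of these calls but that of COL8A1 was lost under some alternative. Without SIS regenerated tissue 2 the adjusted p was 0.178 for COL16A1, 0.201 for COL6A2, 0.098 for COL7A1 and 0.284 for COL5A1, and without ileum graft 5 it was 0.055 for COL8A2. COL7A1 was higher in PRS too (1.44, SE 0.43, adjusted p = 0.0261 by edgeR), a call lost without ileum graft 4 (0.0561), PRS regenerated tissue 1 (0.0623) or PRS regenerated tissue 3 (0.11) and when the 2 groups were fitted alone (0.107). COL9A1 was lower in PRS, at 0.356, 0.370, 0.0858 and 0.235 RPKM against 0.732 to 4.19 RPKM in ileum grafts, with no overlap (-3.24 on the log2 scale, SE 0.74, adjusted p = 0.00374 by edgeR). The count of SIS calls was 8 without ileum graft 4, 7 without ileum graft 5 and 8 (7 higher, 1 lower) without SIS regenerated tissue 2, and the PRS count was 10 (9 higher, 1 lower) without ileum graft 2. Without all 4 libraries that stood apart it was 10 in SIS, all higher, and 9 in PRS, 7 higher and 2 lower. Fibroblast markers moved with these calls, with 4 of 7 higher and 0 lower in SIS and in PRS. Their sum was 2260 to 13900 CPM in SIS and 1750 to 7910 CPM in PRS regenerated tissue, against 566 to 1360 CPM in ileum grafts. DCN, also counted among the fibril-associated proteoglycans, was the largest member of this sum in every regenerated tissue. DPT, PDGFRA and THY1 overlapped between ileum grafts and regenerated tissue of both arms.

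Whether graft and native bladder differed in collagen to another extent in the scaffold arms than in the Entero arm was tested as a difference of graft-against-native changes. The Entero part of this test is the comparison of ileum grafts with native bladder above, so the tests are not independent. All genes called here by edgeR are among those called lower in ileum grafts there. Of 42 collagens 4 had a higher change in the scaffold arms and 0 a lower one, which is 9.52% against 3.86% of all genes higher, 3.52% lower and 7.38% in either direction. DESeq2 called 5 higher and 1 lower, and edgeR with DESeq2's size factors 4 higher and 1 lower (COL9A1). COL4A5 differed by 2.85 (SE 0.55, adjusted p = 0.00134 by edgeR): within animals its log2 difference between graft and native bladder was -1.01 to 0.80 in SIS and -1.45 to 1.65 in PRS, against -3.96 to -2.10 in the Entero arm, so that no scaffold animal fell as far as any Entero animal. COL14A1 differed by 3.06 (SE 0.86, adjusted p = 0.0272), with animals at -2.46 to 1.78 in SIS and -0.94 to 1.55 in PRS, against -4.85 to -1.14 in the Entero arm. COL4A6 differed by 2.96 (SE 0.87, adjusted p = 0.0346) and COL21A1 by 3.11 (SE 0.92, adjusted p = 0.0367). COL9A1 stood on the other side, at -2.48 (SE 0.79, adjusted p = 0.0535), without a call. Of 7 fibroblast markers 2 had a higher change in the scaffold arms and 0 a lower one, and their part in the result was not tested.

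With the animal as a replicate block 2 were kept, COL4A5 and COL4A6, while COL14A1 (2.67, adjusted p = 0.112) and COL21A1 (3.61, adjusted p = 0.0715) were lost. COL4A5 was called in each of the 28 fits that left out 1 library, with adjusted p of 0.000904 to 0.00418. COL4A6 was lost in 9 of these fits (adjusted p of 0.0504 to 0.0647), COL21A1 in 10 (0.0512 to 0.0834) and COL14A1 in 4 (0.0502 to 0.0628). The count was 1 without ileum graft 5 or PRS regenerated tissue 2, and 2 without Entero native bladder 4, Entero native bladder 5, SIS regenerated tissue 1 or ileum graft 4 (in this last case 1 higher and 1 lower). With the 4 libraries that stood apart left out, COL4A5 was the 1 gene called higher and 3 genes, COL9A1, COL12A1 and COL15A1, were called lower.

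Between PRS and SIS regenerated tissue 0 of 42 collagens passed by edgeR or DESeq2, and the share over all genes was 0%. COL9A1, lower in PRS, had the 1 unadjusted p under 0.05 (-1.81 on the log2 scale, SE 0.69, adjusted p = 1 by edgeR), followed by COL8A1 (-1.22, SE 0.73) and COL5A1 (-0.85, SE 0.58). SIS regenerated tissue 2 had 2.18 RPKM of COL9A1, against 0.516 to 0.673 RPKM in the other 4. The interval stayed within 4-fold for 15 of 42 collagens. The difference between the graft changes of the PRS and SIS arms gave 0 calls by either tool, 0 unadjusted p under 0.05, and 0% over all genes, with the smallest p for COL11A1 (4.20, SE 2.30), COL19A1, a rare FACIT collagen (2.87, SE 2.41), and COL6A6 (2.20, SE 1.85).

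The native bladders, each of which lay beside a different graft, were also compared between arms. The native bladder of the Entero arm had 0 collagens called against that of the scaffold arms by edgeR or DESeq2, with 0 unadjusted p under 0.05, and 0.0466% of all genes were called. COL6A5 (-1.13 on the log2 scale, SE 0.65), COL11A1 (1.98, SE 1.26) and COL5A1 (-0.72, SE 0.49) had the smallest p. PRS native bladder had 0 called against SIS native bladder by either tool, as had all genes (0%), and 3 had an unadjusted p under 0.05. These were COL11A1, with 2 reads over PRS and 92 over SIS native bladder, COL4A4 (3.12, SE 1.36) and COL3A1 (-1.42, SE 0.65). The median log2 difference was -0.59 over the collagens and 0.00 over all genes. COL3A1 stood at 156, 207, 140 and 89.3 RPKM in PRS native bladder and at 357, 274, 484, 372 and 500 RPKM in SIS native bladder, which did not overlap, yet the difference did not pass (adjusted p = 0.68 by edgeR).

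For chains that share a trimer and were both abundant, the ratio of levels spanned under 4-fold over the 28 libraries. COL1A1 over COL1A2 ran from 0.510 to 1.35, COL4A1 over COL4A2 from 0.430 to 0.841 and COL6A1 over COL6A2 from 0.776 to 1.75. COL4A5 over COL4A6 was wider, at 0.305 to 6.43, with the highest value in an ileum graft. Its mean was 2.30 ± 2.32 in ileum grafts and 1.05 ± 0.218 in native bladder (SD, n = 5 each). The ileum mean rests on ileum graft 4, which had 34 reads of COL4A6, and the ileum median was 1.47. PRS regenerated tissue had a mean of 2.13 ± 1.49 (n = 4), against 1.16 ± 0.696 in PRS native bladder. SIS regenerated tissue had 1.39 ± 0.427, against 0.975 ± 0.303 in SIS native bladder. COL15A1 over COL18A1, 2 multiplexins that do not share a trimer, averaged 0.811 ± 0.325 in ileum grafts and 0.427 ± 0.108 in native bladder, and COL7A1 over COL17A1, which belong to the attachment of epithelium, ran from 0.0159 to 5.74 over the 27 libraries with a COL17A1 read. COL4A3 over COL4A4 ran from 0.216 to 18.5 over the 25 libraries with a COL4A4 read, on few reads. Of the 44 collagens, 14 lie in 7 pairs of direct neighbours in the RefSeq annotation (Panubis1.0), among them COL4A1 and COL4A2, COL4A5 and COL4A6, COL6A1 and COL6A2, and COL3A1 and COL5A2, so that members of a pair share a locus and are not independent genes.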

How the data were processed

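Bulk RNA from 28 bladder samples of 14 baboons had been sequenced from poly-A libraries with strand marking, per the labels' protocols. The authors deposited whole-number counts per gene with gene symbols and gene lengths; per the submitters' processing notes featureCounts 1.5.0-p3, HISAT2 2.0.5 and StringTie 1.3.3b were used; build, annotation and strand setting are, in the sources used here, not given. Shared reads of overlapping or similar genes may therefore be split in unknown ways. Of 27533 genes 6280 had no symbol, so a collagen without one would be missed.

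Tests on the deposited counts used edgeR 4.0.16 under R 4.3.3 (quasi-likelihood, robust, TMM scaling, filterByExpr with a minimum count of 10), in 1 model of 6 groups over all 28 libraries. Benjamini-Hochberg adjustment ran over all 17177 genes tested, with a threshold of 0.05 and 95% intervals. DESeq2 1.42.0 was an alternative. Fold changes are on the log2 scale. The procedure was also run on simulated counts drawn independently for each library. That run had no paired animals and no libraries that stand apart, so it does not cover these features of the data. Differences within an animal are log2 differences of graft and native values, and class sums carry no test. Animals are the replicates within each group, but the main model treats the graft and native libraries of an animal as independent. Its p-values measure the spread between libraries within groups. The spread of differences within animals enters only the fit with the animal as a replicate block.

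The members, lists and tests were chosen with earlier results of these data known. Named with statistics were every called collagen (the 12 with the smallest p where more were called), the 3 with the smallest p where none was, the 4 most abundant of each class and fixed chain pairs; for other genes, up to 4 per list. Graft and native libraries with the same number come from the same animal; deviations of the 2 from their group means correlated at -0.19 to 0.61, over 0.1 in 7 of 14 animals. No sequences are printed, as none were used here.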

Additional observations from a re-analysis of the deposited data

Results flagged for a closer look

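In 138 groups of 4 or 5 libraries, 32 values lay far from the rest of their group. The groups were tested over class sums, class shares of the collagen level and the 14 genes called by edgeR in these same data. Chance alone gives about 1 in 20 groups only where values are spread normally. These levels were tested without a log scale, many groups have a long upper tail, and every value that lay apart was high. That rate is therefore no baseline for the count found here. The values are also not independent, since most come from 4 libraries. All values are RPKM, with the range of the other libraries of the group after each.

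Ileum graft 2 was high in fibrillar collagen (1270, others 157 to 269), through COL1A1 (563, others 31.5 to 73.0), COL1A2 (419, others 40.8 to 90.2) and COL3A1 (221, others 38.4 to 75.7). Ileum graft 3 was high in other collagens (824, others 240 to 365).

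SIS regenerated tissue 2 was high in the sum of all collagens (7480, others 1360 to 3090) and of fibrillar collagens (4830, others 851 to 1800). Its high genes were COL1A1 (1930, others 301 to 665), COL1A2 (1430, others 303 to 626), COL3A1 (1200, others 205 to 424) and COL5A1 (152, others 19.0 to 48.3). COL16A1 (94.6, others 17.7 to 31.1), COL8A1 (49.9, others 6.14 to 9.12) and COL9A1 (2.18, others 0.516 to 0.673) stood apart there too. SIS regenerated tissue 1 was high in COL4A6 (23.5, others 4.97 to 10.2).

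PRS regenerated tissue 2 was high in all collagens (4840, others 953 to 1580), fibrillar (2790, others 504 to 856), basement membrane (647, others 52.9 to 143) and FACIT collagens (153, others 56.9 to 67.8). Its high genes were COL1A1 (1100, others 163 to 310), COL1A2 (910, others 191 to 304), COL3A1 (654, others 113 to 201), COL14A1 (103, others 10.1 to 23.0) and COL21A1 (2.31, others 0.784 to 0.971).

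Entero native bladder 4 was high in all collagens (4240, others 755 to 1570), fibrillar (2470, others 304 to 776) and basement membrane collagens (464, others 72.4 to 128). Its high genes were COL1A1 (860, others 86.4 to 251), COL1A2 (902, others 129 to 322), COL3A1 (598, others 57.9 to 152), COL6A2 (539, others 118 to 237) and COL8A1 (21.4, others 3.27 to 7.63).

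The graft change differed between the scaffold arms and the Entero arm, by a test of that difference, for COL4A5 (2.85 on the log2 scale), COL4A6 (2.96), COL14A1 (3.06) and COL21A1 (3.11).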

How the results depend on the processing

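No called log2 fold change of a named collagen changed sign under any alternative. Values that had not been called did: 134 of 2045 values under the alternatives had the other sign, from 40 of 110 gene and comparison pairs, none of them called (adjusted p of at least 0.47 in the full fit and 0.402 under the alternative), and 119 of the 134 came from leaving out libraries. The count of collagens called in SIS regenerated tissue against ileum grafts was 13 and became 7 (6 higher, 1 lower) when only those 2 groups were fitted. In PRS regenerated tissue against ileum grafts it was 6, and 11 by DESeq2. With the animal as a replicate block the difference in graft change between the scaffold and Entero arms had 2 calls in place of 4, and the block changed no other count by over 1.5 times. Leaving out 1 library at a time gave 5 to 10 calls for ileum grafts against native bladder, 7 to 14 for SIS and 4 to 10 for PRS regenerated tissue against ileum grafts, 1 to 6 for the difference between arms, and 0 in every other comparison. TMM scaling without the mitochondrial genes left all 110 values on their side of the threshold. The share of FACIT collagens by counts, not divided by length, was 4.02% in SIS regenerated tissue and 4.04% in SIS native bladder, against 3.20% and 3.26% by level. Leaving out the 4 libraries that stood apart was chosen after seeing the data: of the named values 97 stayed on their side of the threshold, 2 passed anew and 8 were lost. The cause of these shifts was not tested. Groups of 4 or 5 animals leave wide intervals, and COL11A1, COL21A1 and COL9A1 rest on few reads.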
